A study of Homo sapiens with 8 samples.

Results

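The interleukin 1 family was followed through SCC13 cells, an established line of human skin squamous cell carcinoma, after hairpins against 3 Polycomb proteins. Its members were taken from a list of 10 genes (IL1A, IL1B, IL1RN, IL18, IL33, IL36A, IL36B, IL36G, IL36RN and IL37). Those that the annotation used here pairs with a probe set were kept. That left 5 of 10, namely IL1RN, IL18, IL33, IL36RN and IL37, each with 1 probe set, among 14884 genes in all. IL1A, IL1B, IL36A, IL36B and IL36G had no annotated probe set and were not analysed here, so the classical agonists of the family are outside what follows.

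The 8 arrays measured total RNA from 4 groups of 2 arrays. The cells of every group carried a short hairpin RNA, which was against GFP in the control group (shGFP), and against RING1B (shRING1B), EZH2 (shEZH2) or BMI1 (shBMI1) in the others. BMI1 and RING1B belong to Polycomb repressive complex 1 and EZH2 is the methyltransferase of complex 2, and both complexes keep genes silent through histone marks. The series title asks whether RING1B and EZH2 hold back proinflammatory genes. The labels give neither the delivery of the hairpins, nor their number per gene, nor whether the cells were clones. They also leave unsaid whether equal hairpins were run on independent cultures, so p-values here reflect array-to-array spread alone, possibly technical.

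Interleukin 1 family proteins are alarm signals of barrier tissues. Agonists such as IL-1 beta, IL-18, IL-33 and the IL-36 cytokines bind a receptor of their own, which then pairs with an accessory chain and signals through MYD88 and the IRAK kinases to NF-kB. Antagonists such as the products of IL1RN and IL36RN occupy the receptor without starting the signal, and IL-37 dampens it. Keratinocytes store several of these proteins as precursors, so an mRNA level is not a level of active cytokine.

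Among the 5 members, IL18 was the one gene past the test, and in 1 of 6 comparisons: it was 1.66-fold higher with shEZH2 than with shRING1B. IL33, IL37 and IL18 had both shEZH2 arrays above both shGFP arrays without passing the test. That pattern was common, with 23.1% of all genes above in this way and 27% below. IL1RN varied between the arrays of 1 hairpin about as much as between hairpins, and IL36RN kept its group means within 0.16 log2 units. A list of genes that IL-1 and IL-36 induce in keratinocytes was written with earlier results of these data known. Whether either cytokine acted on the list was not tested. Of its genes, 8 of 25 measured were called higher with shEZH2 than with shGFP, where 0.558% of all genes were. The 8 calls were lost without any 1 of those 4 arrays, as were most or all calls over all genes.

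The genes lie on 3 chromosomes. In the GRCh38.p14 annotation, 8 of the listed genes form a cluster on chromosome 2 between 112773925 (IL1A) and 113134014 (the end of IL1RN), an interval with 18 annotated genes of which 9 are protein-coding. The annotation used here pairs 3 of them with a probe set, IL37 (112911165 to 112918882), IL36RN (113058638 to 113064744) and IL1RN (113099360 to 113134014), all members. IL18 lies on chromosome 11 (112143260 to 112164094) and IL33 on chromosome 9 (6215149 to 6257983). The 3 measured genes of the cluster did not share 1 order of the hairpin groups, as the values given further on show.

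Promoter windows from RefSeq, covering 250 bases before to 50 after a transcript start, were at hand for 4 of the 5 measured members, all but IL18. They are shown because Polycomb complexes in mammals are known to sit mainly on promoters rich in CG dinucleotides. Polycomb binding was not measured here, so whether it occurs at these genes was not tested. The windows are those of the most upstream annotated start, on the plus strand of GRCh38.p14, at chr2:112910915-112911214 for IL37, chr9:6214899-6215198 for IL33 and chr2:113058388-113058687 for IL36RN. IL37 and IL33 stand for members whose shEZH2 arrays both lay above both shGFP arrays, and IL36RN for the member that varied least. Capitals mark CG dinucleotides.
IL37: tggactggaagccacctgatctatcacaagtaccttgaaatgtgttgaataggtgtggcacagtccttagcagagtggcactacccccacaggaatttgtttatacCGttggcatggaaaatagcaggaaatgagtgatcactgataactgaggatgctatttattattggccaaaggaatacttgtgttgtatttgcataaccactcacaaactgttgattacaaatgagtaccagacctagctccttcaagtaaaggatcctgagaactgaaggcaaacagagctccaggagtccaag
IL33: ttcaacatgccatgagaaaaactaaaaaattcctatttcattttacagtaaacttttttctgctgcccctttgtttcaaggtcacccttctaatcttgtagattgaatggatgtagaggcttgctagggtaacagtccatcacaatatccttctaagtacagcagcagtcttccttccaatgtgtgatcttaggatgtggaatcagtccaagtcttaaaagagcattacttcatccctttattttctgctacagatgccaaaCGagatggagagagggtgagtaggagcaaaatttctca
IL36RN: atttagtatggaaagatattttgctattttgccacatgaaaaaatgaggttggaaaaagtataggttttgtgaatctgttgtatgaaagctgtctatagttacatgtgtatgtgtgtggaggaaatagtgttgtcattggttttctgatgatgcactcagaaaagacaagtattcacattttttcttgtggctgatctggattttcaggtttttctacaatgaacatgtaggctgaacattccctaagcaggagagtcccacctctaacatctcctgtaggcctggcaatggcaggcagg

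The IL37 and IL33 windows printed here each hold 1 CG dinucleotide and the IL36RN window holds 0. The other window of each gene holds more, 5 for IL37, 3 for IL33 and 4 for IL36RN. Over all 9 windows of the 4 members the number ran from 0 to 7, and all 9 lay under the median of 14 over the 35116 windows of the table. Windows of 1 gene can overlap, so they are not independent. The NF-kB consensus, searched on both strands, was matched in 1 of the 9 windows, the IL36RN window printed here, and in 5.91% of all windows. The AP-1 motif TGANTCA, which reads the same on both strands, was matched in 1 (IL1RN) of the 9 and in 7.71% of all. The sequence TATAAA, searched on both strands, was in 2 (the upstream IL37 window and 1 of IL1RN) and in 11.5% of all. A match is a description of these letters and no measure of binding.

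Some facts of the series bear on every value given here. EZH2 mRNA was at 8.95 and 9.03 on the shEZH2 arrays and at 9.83 and 9.97 on the shGFP arrays, a log2 difference of -0.91 ± 0.12 (SE, n = 2 per group; limma, adjusted p = 0.0183). BMI1 and RNF2 (the RING1B gene) were not analysed here for want of an annotated probe set, so those 2 knockdowns were not checked. Titles of the shEZH2 arrays carry another prefix (SCCL3) than the other 6, so a line or batch that goes with it cannot be told apart from the hairpin. Keratinocyte markers such as KRT5, KRT14 and SFN fit the label, with 8 of 15 measured, but their array mean was lower on all 6 knockdown arrays than on both shGFP arrays. It was 8.96 and 8.97 with shGFP, 8.82 to 8.84 with shEZH2, 8.66 to 8.78 with shRING1B and 8.79 to 8.88 with shBMI1. Against shGFP 2, 0 and 1 of the 8 had positive values with shEZH2, shRING1B and shBMI1 (medians -0.18, -0.19 and -0.15). In limma 0 passed, and 2, 1 and 0 did with a trended robust variance. Unadjusted, 2, 3 and 1 were under 0.05, beside 16.2%, 8.6% and 5.58% of all genes. Between shEZH2 and shRING1B, where IL18 passed, 4 of the 8 had positive values. There 1 was called higher with shEZH2, where 0.356% of all genes were. DSG3, named after its value was seen, was at 10.33 and 10.37 with shEZH2 and 9.22 and 9.46 with shRING1B. With shGFP DSG3 was at 9.76 and 10.09. The part of these marker shifts in the members' values was not tested. Of 20 leukocyte markers 11 were measured, all 11 higher with shEZH2 than with shGFP (median 0.25; 0 past the limma test or its trended robust form, 3 at an unadjusted p under 0.05, as 16.2% of all genes were). Their array mean was 6.24 to 6.33 with shEZH2 against 6.03 to 6.04 with shGFP, 6.08 to 6.12 with shRING1B and 6.05 to 6.06 with shBMI1; their part in the shEZH2 values was not tested. In bulk RNA, fewer cells of a type and less RNA per cell cannot be told apart.

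**Figure D1:**
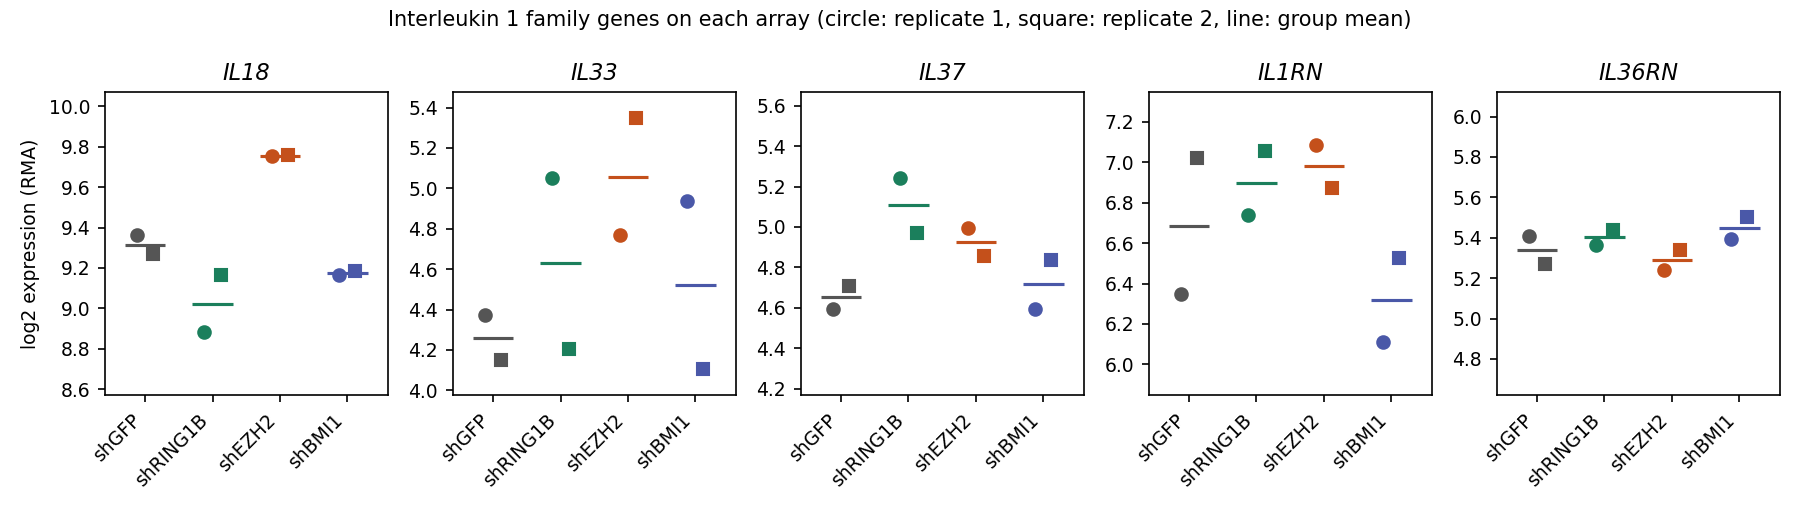
Log2 expression of the 5 measured interleukin 1 family genes (y axis, each panel spanning 1.5 log2 units) on each array of the 4 hairpin groups (x axis), with circles for replicate 1, squares for replicate 2 and lines for group means. Both shEZH2 arrays lie above all 6 others in IL18, while the 2 arrays of a hairpin lie far apart in IL33 and IL1RN.

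IL18 encodes an agonist that drives interferon gamma production, made by keratinocytes as a precursor that caspase-1 cleaves. Its log2 level was 9.75 and 9.76 on the shEZH2 arrays, 9.36 and 9.27 on the shGFP arrays, 9.17 and 9.19 on the shBMI1 arrays, and 8.88 and 9.16 on the shRING1B arrays. Both shEZH2 arrays were above the other 6, and both shRING1B and both shBMI1 arrays were below both shGFP arrays. The shEZH2 mean exceeded the shRING1B mean by 0.73 ± 0.11 (SE, n = 2 per group; 95% interval 0.48 to 0.98), with a limma adjusted p = 0.0305. Of all genes, 0.356% were called higher in this comparison and 0.578% in either direction. The difference kept its direction without any 1 array, at 0.59 to 0.88, but its call was lost then, as were most or all calls over all genes. With only the 4 arrays compared it did not pass either (limma adjusted p = 0.118).

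Against shGFP, IL18 lay on opposite sides with shEZH2 and shRING1B, and neither value passed. With shEZH2 the log2 difference was 0.44 ± 0.11 (95% interval 0.19 to 0.69; limma adjusted p = 0.113), a 1.36-fold higher level. With shRING1B it was -0.29 ± 0.11 (95% interval -0.54 to -0.04; adjusted p = 0.493; -0.15 without shRING1B replicate 1 and -0.44 without shRING1B replicate 2), and with shBMI1 -0.14 ± 0.11 (adjusted p = 0.986). The direct test of shEZH2 against shRING1B, given before, bears on the distance between these 2 groups. It cannot show that they lie on opposite sides of shGFP, since it leaves the shGFP level out. Against shBMI1 the shEZH2 value was 0.58 ± 0.11 (limma adjusted p = 0.0558). With a variance that follows the level, estimated robustly, IL18 passed against shBMI1 (limma adjusted p = 0.00288) and shGFP (0.0164) too. That variance called 640 and 648 of 14884 genes there, where the main fit called 145 and 109. In the order shEZH2, shGFP, shBMI1, shRING1B, no 2 neighbours differed past the test.

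**Figure D2:**
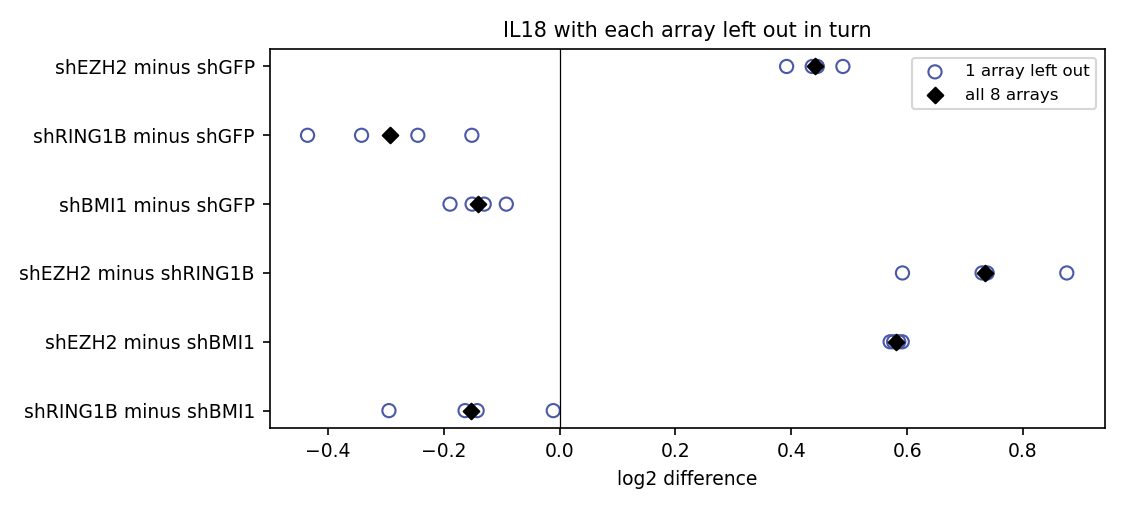
IL18 log2 differences (x axis) in the 6 comparisons (y axis), with diamonds for all 8 arrays and open circles for the fits that left out 1 array of the comparison. Differences of shEZH2 from shRING1B stay between 0.59 and 0.88, and each of the 6 rows keeps its sign.

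IL33 encodes a nuclear alarmin released from damaged barrier cells, which activates ST2, the product of IL1RL1. It had the widest range of group means of the 5 (0.80) and also a wide spread between arrays of 1 hairpin, with a pooled SD of 0.47 that was larger than that of 99.7% of genes. Its level was 4.77 and 5.35 with shEZH2, 5.05 and 4.21 with shRING1B, 4.94 and 4.11 with shBMI1, and 4.37 and 4.15 with shGFP. Only the shEZH2 arrays both lay above both shGFP arrays; shRING1B and shBMI1 each held 1 array above the shGFP pair and 1 below its higher array. The difference from shGFP was 0.80 ± 0.34 with shEZH2 (95% interval 0.01 to 1.59; limma adjusted p = 0.306), 0.37 ± 0.34 with shRING1B (adjusted p = 0.838) and 0.26 ± 0.34 with shBMI1 (adjusted p = 0.999). The shEZH2 value was 0.51 without shEZH2 replicate 2 and 1.09 without shEZH2 replicate 1. The 95% interval with shRING1B ran from -0.42 to 1.16, and the value was -0.055 without shRING1B replicate 1. IL33 was dim, with 13% of genes at a lower mean, and the filter on the dimmest 30% removed it, as it did IL37 and IL36RN.

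IL37 encodes a cytokine that binds the IL-18 receptor chain and dampens inflammation. It was at 5.24 and 4.97 with shRING1B, 4.99 and 4.85 with shEZH2, 4.60 and 4.84 with shBMI1, and 4.59 and 4.71 with shGFP. Both shRING1B arrays and both shEZH2 arrays lay above all shGFP and shBMI1 arrays, with the lower shEZH2 array just over the higher shBMI1 array. The log2 difference from shGFP was 0.46 ± 0.13 with shRING1B (95% interval 0.16 to 0.75; limma adjusted p = 0.384) and 0.27 ± 0.13 with shEZH2 (adjusted p = 0.340). With shBMI1 it was 0.06 ± 0.13 (adjusted p = 0.999), and between shRING1B and shBMI1 it was 0.39 ± 0.13 (adjusted p = 0.409). None of these passed. Its group order was shRING1B, shEZH2, shBMI1, shGFP, unlike that of IL18, in which shRING1B was lowest.

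IL1RN encodes the interleukin 1 receptor antagonist, which keeps IL-1 alpha and beta off their receptor. Its level was 7.08 and 6.88 with shEZH2, 6.74 and 7.06 with shRING1B, 6.35 and 7.02 with shGFP, and 6.11 and 6.53 with shBMI1. The shGFP arrays differed from each other by 0.67, where its group means spanned 0.66, and overlapped every other group. Against shGFP the differences were 0.29 ± 0.23 (shEZH2, adjusted p = 0.569), 0.21 ± 0.23 (shRING1B, adjusted p = 0.865) and -0.37 ± 0.23 (shBMI1, adjusted p = 0.961). The shBMI1 arrays lay below both shEZH2 and both shRING1B arrays, by 0.66 ± 0.23 and 0.58 ± 0.23 (adjusted p = 0.236 and 0.504). Its direction against shGFP turned for shEZH2 and shRING1B when shGFP replicate 1 was left out, to -0.043 and -0.12. The shBMI1 value was -0.70 without shGFP replicate 1 and -0.031 without shGFP replicate 2, and -0.16 without shBMI1 replicate 1.

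IL36RN encodes the IL-36 receptor antagonist, whose loss in people causes pustular skin inflammation. It was at 5.41 and 5.27 with shGFP, 5.36 and 5.44 with shRING1B, 5.24 and 5.34 with shEZH2, and 5.40 and 5.50 with shBMI1. The shGFP arrays overlapped those of each knockdown. The differences from shGFP were -0.05 ± 0.09, 0.06 ± 0.09 and 0.11 ± 0.09 with shEZH2, shRING1B and shBMI1 (adjusted p = 0.832, 0.909 and 0.996). The 95% interval for shEZH2 ran from -0.27 to 0.17, which is narrow beside that of IL33, but RMA understates changes of dim probe sets.

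**Figure D3:**
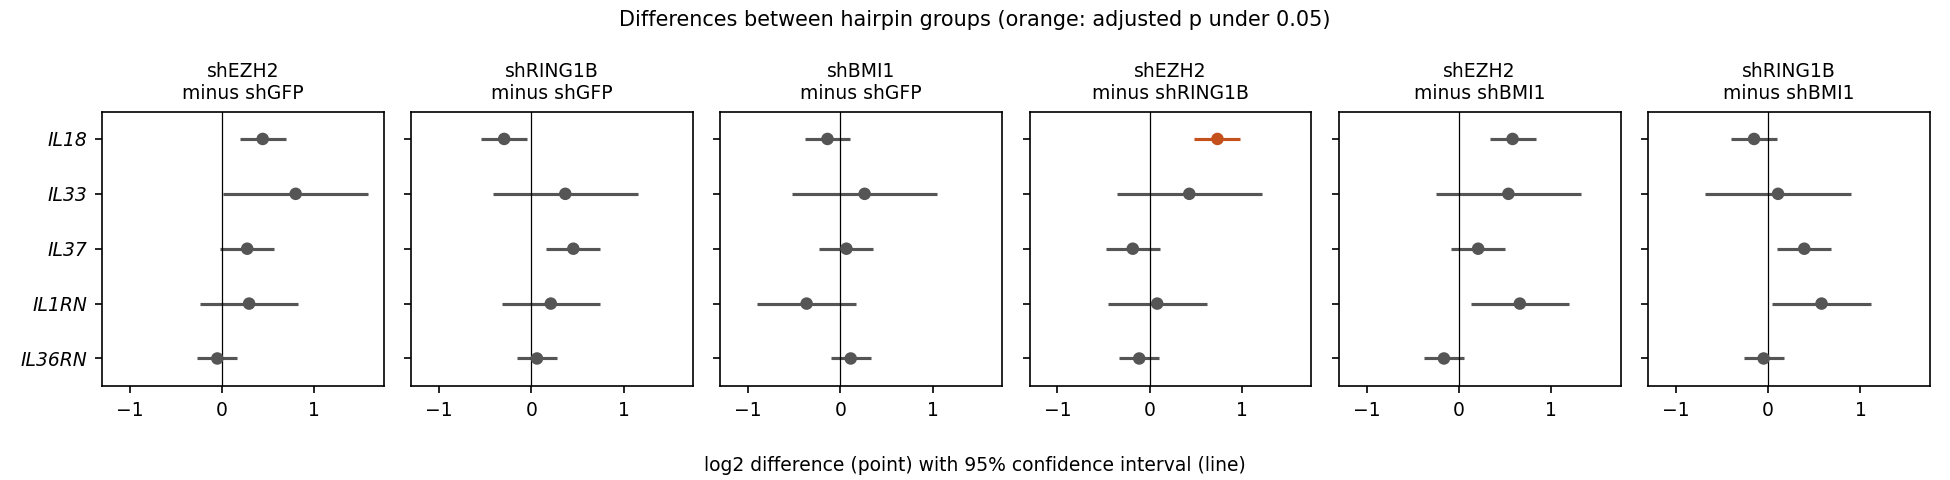
Log2 differences (x axis, points) with 95% intervals from limma (lines) of the 5 genes (y axis) in the 6 comparisons between hairpin groups. IL18 in shEZH2 minus shRING1B is the 1 point in orange (adjusted p = 0.0305), and IL33 has the widest intervals.

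IL18, IL33, IL37 and IL1RN each had an unadjusted p under 0.05 in at least 1 of the 6 comparisons, and IL36RN in none. With shEZH2 against shGFP 0 of 5 passed (0.732% of all genes did) and 2 had an unadjusted p under 0.05, which 16.2% of genes had. With shRING1B 0 of 5 passed and 2 were under the unadjusted threshold, where 0% and 8.6% of genes were. With shBMI1 both counts were 0, where 0% and 5.58% of genes were. A variance trend with robust moderation gave 1, 0 and 0 in the same order, where 648, 36 and 0 of all 14884 genes were called. Between shEZH2 and shBMI1 0 of 5 passed (0.974% of genes), and between shRING1B and shBMI1 0 (0.0134%), with 2 unadjusted in each (15.1% and 9.18%). Between shEZH2 and shRING1B IL18 alone was under the unadjusted threshold, as 15.6% of genes were. Of the 5, 3 had both shEZH2 arrays above both shGFP arrays, a pattern of 23.1% of all genes, and 0 had both below (27%). With shRING1B IL37 lay above (18.2% of genes) and IL18 below (19.1%), and with shBMI1 0 lay above (14%) and IL18 below (17.8%). The median log2 difference of the 5 was 0.29 with shEZH2, 0.21 with shRING1B and 0.06 with shBMI1, beside -0.01, 0.00 and -0.01 over all genes; the 3 comparisons share the shGFP arrays. As a description over the 8 arrays, which share hairpins, Pearson's r between pairs of members ran from -0.52 (IL1RN and IL36RN) to 0.56 (IL1RN and IL37).

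The genes most like 3 of the members were found by Pearson's r over the 8 arrays, among 3008 protein-coding genes whose group means span at least 0.3 log2 units. For IL18 these were PHYH (0.96), RNF170 (0.96) and CASD1 (0.96), each with its highest group mean with shEZH2 and its lowest with shRING1B. For IL33 they were CTAG2 (0.94), REPS2 (0.94) and EML2 (0.91), highest with shEZH2 and lowest with shGFP. For IL1RN they were TESC (0.94), KRT80 (0.94) and ZNF554 (0.93), highest with shEZH2 and lowest with shBMI1. These values describe likeness of pattern over arrays that share hairpins.

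The receptors of the family showed no gene past the test against shGFP in 9 measured of 11 listed. IL1RL1, the IL-33 receptor, was at 8.26 and 8.31 with shEZH2 against 7.92 and 7.49 with shGFP (0.58 ± 0.23, adjusted p = 0.274), and at 0.41 ± 0.23 from shGFP with shRING1B. IL1RL2, the IL-36 receptor, was lower on both arrays of each knockdown than on both shGFP arrays (7.19 and 7.11). It was at 6.71 and 6.73 with shRING1B, 6.84 and 6.83 with shEZH2 and 7.03 and 6.73 with shBMI1. In the same order 19.1%, 27% and 17.8% of all genes were lower in this way. These comparisons share the shGFP arrays. The IL1RL2 differences were -0.43 ± 0.11, -0.31 ± 0.11 and -0.27 ± 0.11 (limma adjusted p = 0.346, 0.228 and 0.884). IL1RAPL1, a neuronal relative of the accessory chain, was at 5.33 and 5.01 with shRING1B and at 4.40 and 4.39 with shGFP (0.77 ± 0.17, adjusted p = 0.309). At an unadjusted p under 0.05 there were 2, 3 and 1 of the 9 genes with shEZH2, shRING1B and shBMI1, beside 16.2%, 8.6% and 5.58% of all genes, and 0 passed with a trended robust variance. The median over the 9 genes was 0.02, 0.01 and 0.09 with shEZH2, shRING1B and shBMI1.

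In the signalling chain below the receptors, 12 of 16 genes were measured and 0 passed against shGFP. IRAK2, a kinase-like adaptor that sustains NF-kB signalling, was at 8.53 and 8.52 with shEZH2, 8.54 and 8.17 with shRING1B, 7.83 and 8.09 with shBMI1, and 7.91 and 7.86 with shGFP. Its difference from shGFP was 0.64 ± 0.14 with shEZH2 and 0.47 ± 0.14 with shRING1B (adjusted p = 0.0892 and 0.394). IRAK3, which restrains the same pathway and was dim, was at 5.02 and 4.73 with shEZH2 against 4.16 and 4.22 with shGFP (0.69 ± 0.18, limma adjusted p = 0.129). It was also higher with shRING1B, at 4.28 and 4.79 (0.35 ± 0.18, adjusted p = 0.657). With shBMI1 it was at 4.70 and 4.41 (0.37 ± 0.18, adjusted p = 0.909). TAB1, a partner of the kinase TAK1, was at -0.27 ± 0.09 with shEZH2 (adjusted p = 0.203). Unadjusted, 3, 1 and 0 of the 12 genes were under 0.05 with shEZH2, shRING1B and shBMI1 (16.2%, 8.6% and 5.58% of all genes), and with a trended robust variance IRAK2 passed with shEZH2. The medians of the 12 genes were 0.05, -0.02 and 0.01 in the same order.

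Of 23 genes for processing and release of these cytokines 5 were measured, without the caspase-1 gene, and 0 passed against shGFP (2, 0 and 0 at an unadjusted p under 0.05 with shEZH2, shRING1B and shBMI1, as were 16.2%, 8.6% and 5.58% of all genes). CTSS, the cysteine protease cathepsin S, was at 7.02 and 7.23 with shEZH2 and between 5.72 and 6.42 on the other 6 arrays. The difference from shGFP was 1.21 ± 0.21, a 2.31-fold higher level that fell just short of the threshold (limma, adjusted p = 0.0502), and that passed with a trended robust variance. PYCARD, the adaptor of the inflammasome in which caspase-1 matures IL-18, was below both shGFP arrays on all 6 knockdown arrays. Its differences were -0.28 ± 0.11 (shEZH2), -0.24 ± 0.11 (shRING1B) and -0.20 ± 0.11 (shBMI1), with adjusted p = 0.261, 0.586 and 0.938. AIM2, a DNA sensor that also builds an inflammasome, was at 0.12 ± 0.15 with shEZH2 and GSDMD, the pore through which the cytokines leave, at 0.09 ± 0.11 with shBMI1.

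Genes that IL-1 and IL-36 are known to induce in keratinocytes were written as a list with earlier results of these data known. Their direction is therefore no independent evidence. Whether IL-1 or IL-36 acted on these genes here was not tested, and IL1A, IL1B, IL36A, IL36B and IL36G were not analysed. Of 41 listed genes 25 were measured, and with shEZH2 8 rose against shGFP and 0 fell, where 0.558% of all genes rose. The chemokine CCL20 went from 6.07 and 5.81 to 7.55 and 7.73, and the alarmin subunit S100A8 from 6.97 and 7.02 to 8.23 and 8.18. C3, IL32, S100A9, CFB and LIF rose by 1.23 ± 0.19, 0.97 ± 0.10, 0.96 ± 0.13, 0.74 ± 0.08 and 0.67 ± 0.09 on the log2 scale, and S100A7, which has a close copy and is uncertain, by 0.90 ± 0.11. Their limma adjusted p-values lay between 0.00868 (S100A8) and 0.0329 (C3). In all, 24 of the 25 had positive values, with a median of 0.67 against -0.01 over all genes. Without any 1 of the shGFP or shEZH2 arrays a group held 1 array. The 8 calls were lost then, as were most or all calls over all genes, while the median stayed between 0.66 and 0.71.

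With shRING1B 0 of the 25 genes passed in limma, 12 were under an unadjusted 0.05 (8.6% of all genes), 23 had positive values and the median was 0.35. With a trended robust variance 1 passed, LIF. CCL20 was at 7.31 and 6.62, CXCL8, which draws neutrophils, at 8.18 and 7.35 (shGFP 6.93 and 6.71), and CSF3 at 1.00 ± 0.27 from shGFP (adjusted p = 0.381). LIF, at 7.22 and 7.06 against 6.31 and 6.28, was higher than with shBMI1 by 0.93 ± 0.09 (limma adjusted p = 0.0439), 1 of only 2 genes called there. That call was lost with the replicate number as a block (adjusted p = 0.0954), median centring (0.0593), array weights (0.0626), only the 4 arrays compared (0.380) or any 1 of them left out (0.109 to 0.435). With shBMI1 0 of the 25 passed against shGFP, with the trended variance too, 4 were under the unadjusted threshold (5.58% of all genes), and the median was 0.02. S100A7 was at -0.60 ± 0.11, CXCL3 at 0.55 ± 0.17 and MMP10 at 0.36 ± 0.11 (adjusted p = 0.443, 0.754 and 0.738). Between shEZH2 and shBMI1 9 of the 25 were called higher with shEZH2 and 0 lower, where 0.974% of all genes were called in either direction. There 22 had positive values and the median was 0.64. Between shEZH2 and shRING1B, where IL18 passed, 3 of the 25 were higher with shEZH2, where 0.356% of all genes were. They were CFB (0.79 ± 0.08), S100A9 (0.92 ± 0.13) and S100A8 (0.84 ± 0.12). With only those 4 arrays 0 of the 3 passed (limma adjusted p = 0.0512, 0.107 and 0.0548). Without shRING1B replicate 1 S100A9 alone of the 3 passed (adjusted p = 0.0275). Without any 1 of the other 3 arrays none of the 3 did, with adjusted p from 0.0822 to 0.222 and values from 0.74 to 0.97.

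**Figure D4:**
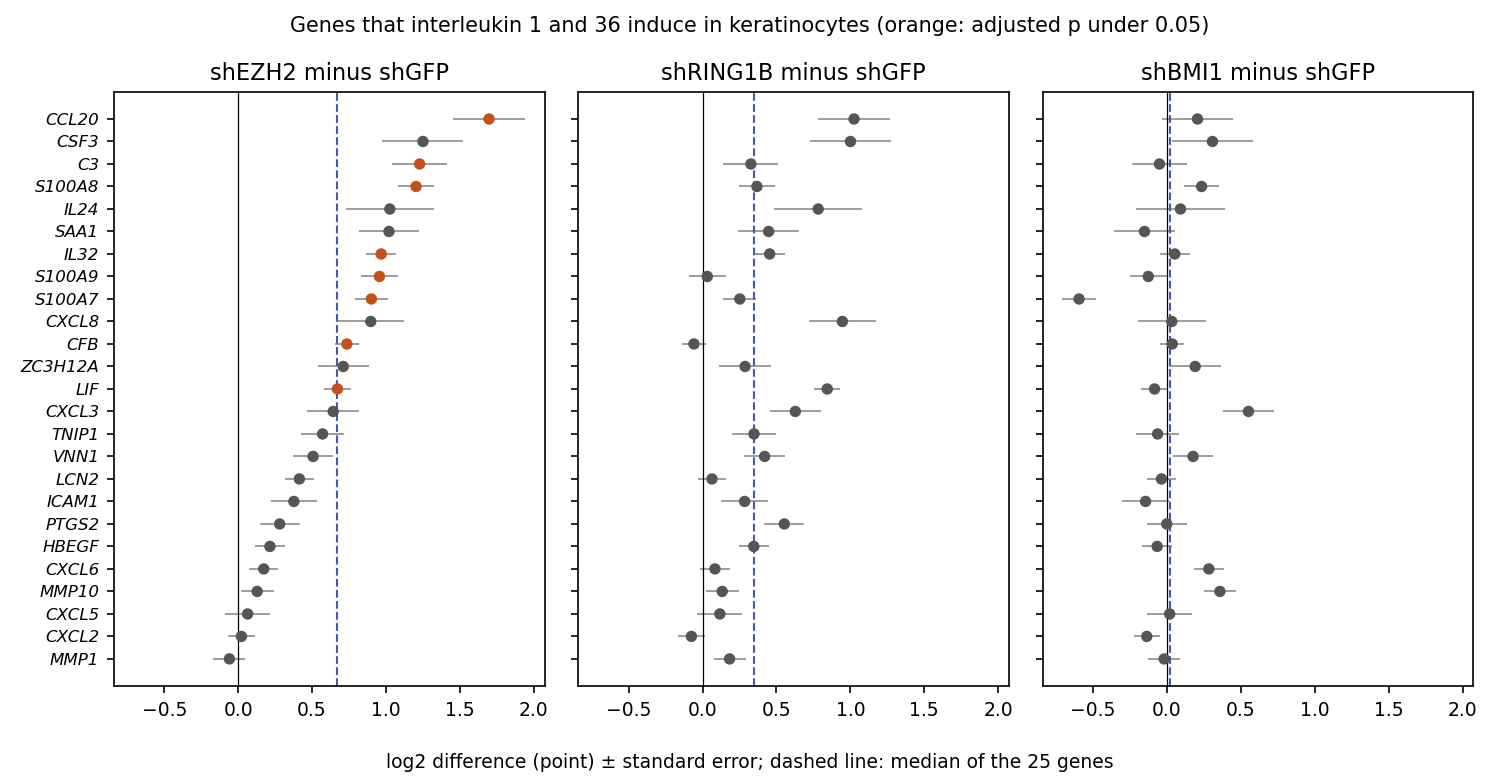
Log2 differences from shGFP (x axis, points with SE bars) of 25 genes that IL-1 and IL-36 induce in keratinocytes (y axis, ordered by the shEZH2 value), with orange for adjusted p under 0.05 and a dashed line at the median. The median is 0.67 with shEZH2, 0.35 with shRING1B and 0.02 with shBMI1, and the 8 orange points are all with shEZH2.

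Epidermal differentiation is a process in which several members of the family, IL37 among them, are known to be switched on. Of 20 of its markers 17 were measured and 0 passed against shGFP with any of the 3 hairpins in limma (2, 6 and 3 at an unadjusted p under 0.05, beside 16.2%, 8.6% and 5.58% of all genes, and 1, 1 and 0 with the trended variance for shEZH2, shRING1B and shBMI1). Their medians were 0.01, 0.10 and -0.08. Of 7 melanocyte markers 6 were measured, with medians of 0.00, 0.07 and 0.03. Unadjusted, 1, 0 and 1 were under 0.05, and 1, 0 and 0 passed with the trended variance. One of the 6, MLANA, named after its value was seen, was called with shEZH2 (0.64 ± 0.11, limma adjusted p = 0.046), where 0.558% of all genes were called higher. The list means were 5.36 to 5.43 with shEZH2 and 5.27 to 5.30 with shGFP. Of 12 fibroblast and endothelial markers 5 were measured, with medians of 0.23, 0.13 and 0.29 and with 3, 4 and 4 of the 5 positive for shEZH2, shRING1B and shBMI1. Unadjusted, 3, 1 and 2 of the 5 were under 0.05, beside 16.2%, 8.6% and 5.58% of all genes. With the trended variance 2, 0 and 0 of the 5 passed. Their array mean was above both shGFP arrays (5.65 and 5.73) on all 6 knockdown arrays, at 5.995 to 6.12 with shEZH2, 5.90 to 5.95 with shRING1B and 5.92 to 6.03 with shBMI1. The matrix proteoglycan gene DCN, also named after its value was seen, was the 1 of the 5 called with shEZH2 (0.93 ± 0.10, limma adjusted p = 0.0109), again beside 0.558% of all genes. The endothelial genes KDR and PECAM1 were at -0.11 ± 0.26 and -0.12 ± 0.12 there. VWF, also endothelial, was higher, at 5.81 and 5.86 with shEZH2 against 5.64 and 5.57 with shGFP. LUM was higher too, at 4.75 and 5.33 against 3.94 and 4.36. With 1 shEZH2 array left out, whichever it was, 0 genes in all were called against shGFP, so neither MLANA nor DCN was. Between shEZH2 and shRING1B, where IL18 passed, 3 of the 5 fibroblast and endothelial markers had positive values. There 1 of the 5 was called higher with shEZH2, where 0.356% of all genes were. The part of these cell types in the family's values was not tested.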

How the data were processed

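Per the submitters' processing notes, the authors made the deposited log2 values with RMA (background correction, quantile normalization and a summary over probes), and the notes also name limma. Their versions, the probe set definitions and the build were not found in the labels or the file. RMA removes any shift shared by most genes. Of 53617 probe sets, 16098 are paired with 1 symbol, 0 with several and 37519 with none in the annotation table used. Symbols were updated through a RefSeq table (GRCh38.p14), and the probe set with the highest mean over 8 arrays stood for a gene (14884 genes). Array medians lay between 5.49 and 5.52.

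Group means were fitted with limma 3.58.1 in R 4.3.3 over all 8 arrays (4 residual degrees of freedom), two-sided, with Benjamini-Hochberg adjustment over all 14884 genes within each of 6 comparisons. A gene was called at an adjusted p under 0.05. Exact permutation of 2 against 2 arrays cannot go below p = 0.333. Errors are standard errors of this fit, and arrays, not probes, limit the precision. Of the steps, only the limma fit was run on simulated data, to check that its mean estimate matched the change put in.

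The text names all measured members, genes of 4 pathway lists that were called against shGFP or, where none was, up to 3 with the largest difference per comparison, the targeted genes, the genes most like 3 members by Pearson's r, and annotated neighbours in the gene cluster. Other genes were chosen after their values were seen, among them further values of a named gene in another comparison. The members, lists and tests were chosen with earlier results of these data known. Alternatives were the replicate number as a block, fewer arrays, other normalizations, filters, probe set rules and variance models, and each array left out. The alternatives for the induced genes were added after seeing the data.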

Additional observations from a re-analysis of the deposited data

How the results depend on the processing

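IL18 in shEZH2 against shRING1B was the 1 member called, and 0 members were called there with only the 4 arrays compared (limma adjusted p = 0.118). Over all genes 21 were called then, and 86 in the main fit. The IL18 call was also lost without any 1 array of the 2 groups, as were most or all calls over all genes. Between shEZH2 and shBMI1 the count went from 0 to 1, IL18, with array weights, protein-coding genes alone, quantile normalization, a trended robust variance, or without the dimmest 30% of genes. Over all genes 145 were called in the main fit and 177, 320, 146, 640 and 445 with these, in that order. Against shGFP with shEZH2 the count of members went from 0 to 1, again IL18, with the trended robust variance. There 648 of all genes were called in place of 109. The cause was not tested. With the replicate number as a block IL18 was called in shEZH2 against shRING1B too (adjusted p = 0.0457), and the block changed no count of members. Replicate differences of 2 hairpins correlated at 0.00 to 0.25 over genes, and not all pairs exceeded 0.1, so the numbers were not taken to pair the arrays. Directions turned in 12 of 417 values of single members under an alternative, all when 1 array was left out. The ranges were then, for IL1RN, -0.043 to 0.63 (shEZH2 against shGFP), -0.079 to 0.24 (shEZH2 against shRING1B) and -0.12 to 0.55 (shRING1B against shGFP). For IL33 they were -0.15 to 0.68 (shBMI1 against shGFP), -0.32 to 0.53 (shRING1B against shBMI1) and -0.055 to 0.79 (shRING1B against shGFP). For IL36RN they were -0.12 to 0.017 (shEZH2 against shGFP), -0.10 to 0.0058 (shRING1B against shBMI1) and -0.0058 to 0.13 (shRING1B against shGFP), and for IL37 -0.056 to 0.18 (shBMI1 against shGFP). Dim members (IL33, IL36RN, IL37) are those whose changes RMA understates most.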
